A study of Mus musculus with 24 samples.

Results

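The genes described here encode the enzymes of the pentose phosphate pathway and the synthetases that draw on its main product: G6pdx, Pgls and Pgd of the oxidative arm, Rpia, Rpe, Tkt and Taldo1 of the non-oxidative arm, and Prps1 and Prps2. These 9 genes were chosen by enzymatic role, and 7 of them could be matched to probe sets of the array, among 17097 genes in all. G6pdx and Rpe were not analysed here. The cells were mouse CD4+ T cells with a naive surface phenotype (CD62L high, CD44 low, CD25-), isolated by sorting from the spleen and the peripheral lymph nodes. RNA was prepared before stimulation and following 8 h or 24 h of culture on immobilised antibodies against CD3 and CD28. Raptor-deficient samples came from CD4(cre)Raptor(fl/fl) mice, in which Cre driven by the Cd4 promoter deletes the floxed part of Rptor. Such Cre acts from the thymic stage at which T cells express CD4, so the deletion is not restricted to naive or to mature cells. Wild-type samples carry the strain label C57BL/6. Ages, the strain of the Raptor-deficient mice and any allele of the controls are not given in the sources used here. With 4 samples in each of the 6 groups, there were 24 arrays. Whether replicates came from separate animals is not stated in the labels, so the p-values refer to the spread among these samples alone, which may be technical.

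The oxidative arm turns glucose 6-phosphate into ribulose 5-phosphate and yields NADPH, the electron donor for fatty acid and sterol synthesis and for keeping glutathione and thioredoxin reduced. The non-oxidative arm interconverts sugar phosphates, so that ribose 5-phosphate can be made from, or returned to, glycolysis. PRPP synthetases activate ribose 5-phosphate to phosphoribosyl pyrophosphate (PRPP), which purine, pyrimidine and NAD synthesis consume. Naive T cells are small and quiescent, and activation through the T cell receptor and CD28 is known to raise glucose use and nucleotide synthesis. Raptor is the subunit that sets mTORC1 apart from mTORC2, and in mouse embryonic fibroblasts mTORC1 is known to raise transcripts of this pathway. The comparison of genotypes bears on whether T cells without Raptor reach the same transcript levels before and after stimulation.

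The promoters of the members that the results turn on are shown here for Pgd and Tkt, whose response to 8 h of stimulation differed between genotypes, and for Prps1 and Prps2, which encode isoforms of the same enzyme. Each is the 250 bases before the gene's start in RefSeq, assembly GRCm38.p6, written 5′ to 3′ on the gene's strand. Capitals mark matches on either strand to the GC box, GGGCGG, and to the CCAAT box, spelled by its name. Pgd has 2 windows in the table. The more upstream is shown, chr4:149166706-149166955 on the minus strand, and the other held none of the motifs searched. The windows of Tkt (chr14:30548881-30549130, plus strand), Prps1 (chrX:140456353-140456602, plus strand) and Prps2 (chrX:167382750-167382999, minus strand) follow.
Pgd: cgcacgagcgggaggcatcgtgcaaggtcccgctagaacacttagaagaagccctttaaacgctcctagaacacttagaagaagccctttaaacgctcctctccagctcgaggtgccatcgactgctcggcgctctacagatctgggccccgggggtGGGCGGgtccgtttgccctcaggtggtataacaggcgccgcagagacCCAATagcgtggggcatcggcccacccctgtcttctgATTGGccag
Tkt: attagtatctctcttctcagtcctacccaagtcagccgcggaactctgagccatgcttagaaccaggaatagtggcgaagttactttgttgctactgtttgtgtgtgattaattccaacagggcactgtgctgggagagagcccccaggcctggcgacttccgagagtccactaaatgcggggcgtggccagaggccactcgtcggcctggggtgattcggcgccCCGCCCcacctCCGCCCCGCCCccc
Prps1: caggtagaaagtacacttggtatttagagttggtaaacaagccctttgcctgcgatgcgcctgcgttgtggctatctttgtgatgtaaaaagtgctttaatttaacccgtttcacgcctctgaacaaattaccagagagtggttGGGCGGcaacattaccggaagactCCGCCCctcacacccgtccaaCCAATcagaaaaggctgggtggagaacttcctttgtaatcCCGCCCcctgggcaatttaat
Prps2: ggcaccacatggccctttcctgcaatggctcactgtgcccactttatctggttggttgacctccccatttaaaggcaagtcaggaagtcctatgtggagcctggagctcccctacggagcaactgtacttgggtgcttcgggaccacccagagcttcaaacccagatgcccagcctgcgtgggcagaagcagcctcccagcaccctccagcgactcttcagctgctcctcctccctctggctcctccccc

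The window of Tkt ends in a cluster of 3 GC boxes, the last pair of which share a base, that of Pgd holds 1 GC box and 2 CCAAT boxes, and that of Prps1 holds 3 GC boxes and 1 CCAAT box. In the Prps2 window neither motif was found. Over all 9 genes, 8 had a GC box, against 32.7% of 32851 RefSeq promoter windows of the same length, and 3 (Pgd, Taldo1 and Prps1) had a CCAAT box, against 33.8%. The members are counted by gene, over 10 windows in all, and the background by window. The letters CACGTG, an E-box of the kind bound by Myc, and TCACNCCAC, the core of a sterol regulatory element, were in none of the members' windows, against 6.02% and 1.05% of all windows. TGACNNNGC, the core of the antioxidant response element, was found only in G6pdx among the members, against 10.2% of all windows. These motifs were chosen after the expression values were seen, and a match or its absence describes these letters in these windows only.

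Array medians lay between 5.15 and 5.29 on the log2 scale, and precision is limited by how many arrays there are. Rptor itself differed by -0.62 in unstimulated cells (adjusted p = 0.075), by -1.01 at 8 h (adjusted p = 0.000292) and by -0.64 at 24 h (adjusted p = 0.0109). Where its probes lie against the deleted part is not given in the sources used here, so these values check the labels only loosely. Cd4 and Cd3e averaged at least 9.904 and 10.59 in each group, both well above the median of all values, 5.22. Among the arrays, unstimulated Raptor-deficient replicates 1, 2 and 3 had the largest spread about their group, with residual SDs of 0.280, 0.222 and 0.206, against 0.119 to 0.172 in the other arrays. Albumin (Alb), a liver transcript, stood at 9.11 in Raptor-deficient and 9.02 in wild-type replicate 1 at 24 h, where the lowest samples of these groups had 6.22 and 6.38.

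Before stimulation no difference between genotypes was called in the 7 measured genes. No member passed an adjusted p of 0.05 (limma's moderated test, Benjamini-Hochberg over all genes), where 1.94% of all genes did, so 0 of 7 is near that share. Likewise 0 of 7 passed at an unadjusted p of 0.05, and the groups overlapped for each. The shares of all genes for these looser rules are not given here. The median difference, Raptor-deficient minus wild type on the log2 scale, was 0.02 for the members and -0.01 for all genes, and the members ran from -0.00194 (Pgls) to 0.08 (Rpia). The 95% intervals were widest for Rpia, -0.25 to 0.40, and for Tkt, -0.29 to 0.32. They therefore leave room for differences of either sign in these genes. The fit shares an estimate of the spread among all 6 groups, so a gene's interval is equally wide at each time. In the unstimulated Raptor-deficient samples Tkt ranged from 8.98 to 10.23 and Pgd from 7.76 to 8.72. The SD of Tkt was 0.52 there and 0.14 in unstimulated wild-type samples, so these intervals may be too narrow before stimulation.

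**Figure D1:**
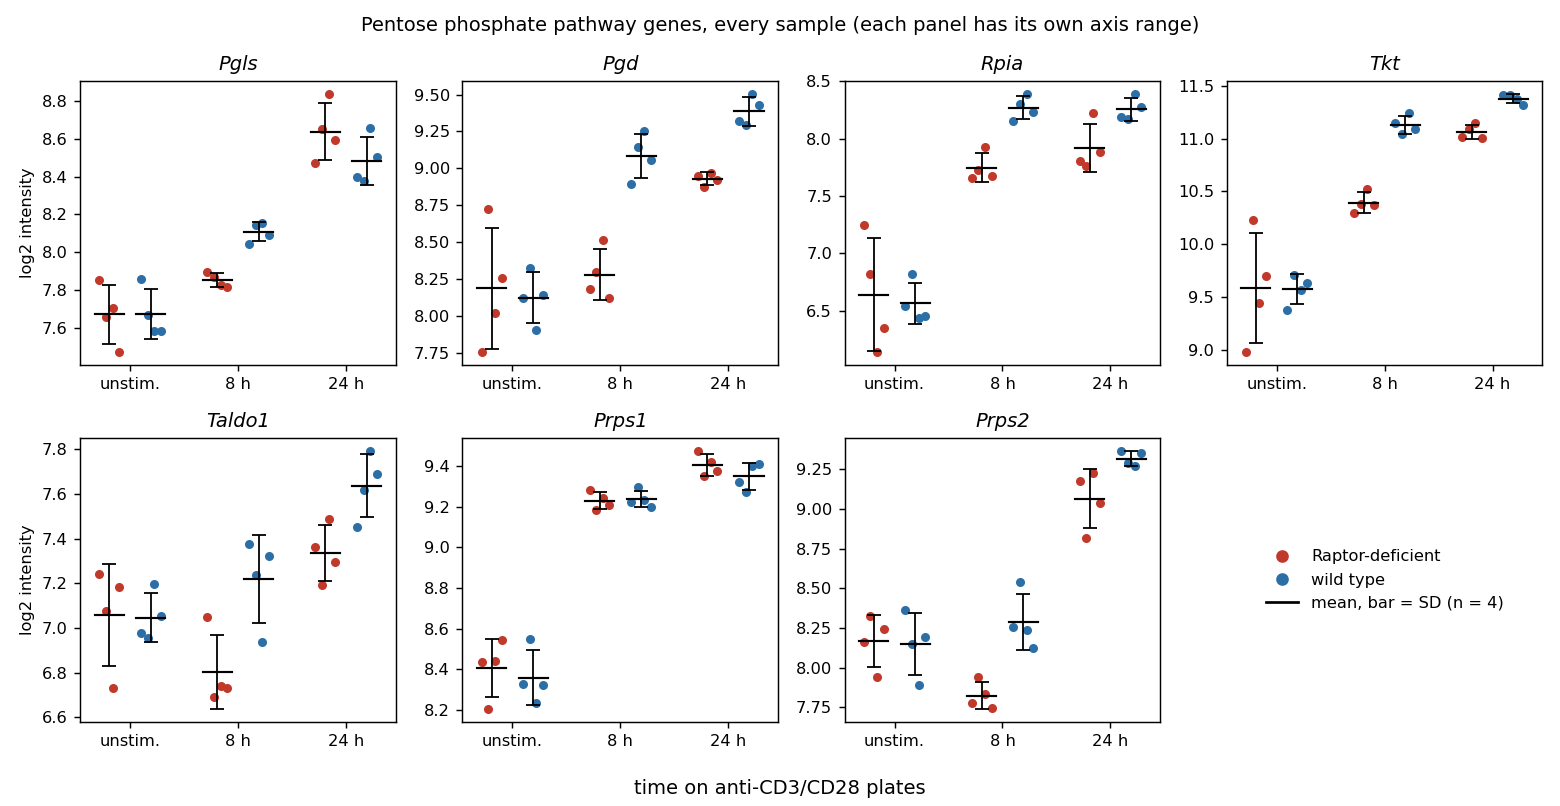
Log2 intensity of the 7 measured genes in each of the 24 samples, by time on the plates, with Raptor-deficient samples in red to the left of wild-type samples in blue. Lines are means and bars SDs (n = 4), and each panel has its own range. The groups overlap before stimulation. At 8 h all Raptor-deficient samples lie below all wild-type samples for Pgls, Pgd, Rpia, Tkt and Prps2, as they do for 12.5% of all genes. At that time the groups overlap by 1 sample for Taldo1 and more widely for Prps1.

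After 8 h on the plates, 5 of the 7 measured genes were lower in Raptor-deficient than in wild-type cells and 0 were higher, where 8.77% of all genes were called lower and 4.14% higher. The called genes were Pgd, Tkt, Rpia, Prps2 and Taldo1, lower by 1.33-fold to 1.75-fold. The median difference was -0.46 on the log2 scale for the members and 0.01 for all genes. At 24 h 1 of 7, Pgd, was lower and 0 were higher, where 13.1% of all genes were called lower and 8.35% higher, and the medians were -0.30 for the members and 0.01 for all genes. Without Raptor-deficient 8 h replicate 2 the count at 8 h was 3. The count at 24 h was 0 without wild-type 24 h replicate 3, 4 without unstimulated Raptor-deficient replicate 1 and 5 with array weights. In these bulk samples, fewer cells of a type and less RNA per cell cannot be told apart.

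Other transcripts moved beside these differences. At 8 h 2 of 7 myeloid markers (S100a8 and S100a9) were higher in Raptor-deficient cells, with the list's summed linear intensity at 227 to 304 against 176 to 189.6 in wild type, and 1 of 6 B cell markers (H2-Aa) was higher, with sums of 376 to 600.3 against 291 to 342. Of the CD4 T cell markers 2 of 9 (Cd4 and Thy1) were lower, with sums of 8467 to 9273 against 9728 to 11090.4. The CD8 T cell list had 0 of 2 called, with sums of 99 to 130 against 141 to 164. The platelet list had 0 of 2 called, with sums of 68 to 83 against 57 to 66. The regulatory T cell marker Ikzf2 was 2.77-fold higher at 8 h (adjusted p = 2.11e-07) and Foxp3 was not called, with list sums of 199 to 231 against 155 to 193. Before stimulation, when no member was called, 5 markers were called, and 1.94% of all genes were. Klrd1, 1 of 5 NK cell markers, was 3.14-fold lower (adjusted p = 1.25e-05). The other NK cell markers were not called and had differences of either sign. Cd4, 1 of 9 CD4 T cell markers, was 1.29-fold lower. Higher were Cd69 (1 of 3 state markers, 2.32-fold), S100a9 (1 of 7 myeloid markers, 1.85-fold) and Ikzf2 (1 of 2 regulatory T cell markers, 1.54-fold).

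Some activation markers also differed. Cd69, an early activation antigen, was higher in Raptor-deficient cells at each time, 2.32-fold before stimulation (adjusted p = 6.19e-07), 1.38-fold at 8 h (adjusted p = 0.00767) and 1.80-fold at 24 h (adjusted p = 4.43e-06). Cd44 was 1.74-fold higher at 24 h (adjusted p = 9.36e-05) and was not called before stimulation or at 8 h (adjusted p = 0.57 and 0.435). Il2ra was called at no time (adjusted p = 0.509 before stimulation, 0.836 at 8 h and 0.121 at 24 h). The summed intensity of the 3 measured markers of the naive or activated state was 257 to 357 in Raptor-deficient and 116 to 186 in wild-type cells before stimulation, 3177 to 3765 against 2603 to 2773 at 8 h, and 3027 to 3227 against 1869 to 2099.5 at 24 h. The groups did not overlap at any of these times. At 24 h the B cell list had 3 of 6 higher and sums of 384 to 699.9 against 256 to 351, and both regulatory T cell markers were higher, with sums of 346 to 445 against 191 to 266. Myeloid sums at 24 h were 181 to 224 against 163 to 181, with 2 of 7 markers higher. The erythroid markers had 0 of 2 called and sums of 157 to 439 against 115 to 152 at 24 h. NK cell sums at 24 h were 101 to 127 against 80 to 95, with 1 of 5 markers (Nkg7) higher. Platelet sums were 61 to 65 against 45 to 56, with 1 of 2 markers (Itga2b) higher. Array intensities have no zero, so no marker was absent in the sense of a zero count. The part of these cells and of the activation state in the results was not tested.

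In the oxidative arm, Pgd, the dehydrogenase that makes NADPH while releasing ribulose 5-phosphate, gave the largest difference at both stimulated times. Its unstimulated log2 intensities were 7.76, 8.72, 8.02 and 8.25 in the Raptor-deficient samples and 8.12, 8.32, 7.91 and 8.14 in the wild-type samples. At 8 h it was measured at 8.18, 8.30, 8.51 and 8.12 in Raptor-deficient cells and 8.90, 9.14, 9.25 and 9.06 in wild-type cells. The 24 h values were 8.95, 8.87, 8.97 and 8.92 in Raptor-deficient cells and 9.32, 9.29, 9.50 and 9.43 in wild-type cells. The unstimulated groups lie within each other, whereas at 8 h and at 24 h each Raptor-deficient sample lay below each wild-type sample. The Raptor-deficient 8 h samples still overlap the unstimulated ones. Pgd was 1.75-fold lower at 8 h (log2 difference -0.81, 95% interval -1.09 to -0.53, adjusted p = 0.00018) and 1.37-fold lower at 24 h (-0.46, adjusted p = 0.0168). The call at 24 h was lost without wild-type 24 h replicate 3 (adjusted p = 0.0564).

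The response of Pgd to the first 8 h of stimulation differed between genotypes. In Raptor-deficient cells Pgd changed by 0.09 between 0 and 8 h (95% interval -0.19 to 0.37, adjusted p = 0.689), against a rise of 0.96 in wild-type cells (adjusted p = 1.63e-06). The genotype difference in that change was -0.87 (adjusted p = 0.00715), in a comparison where 4.36% of all genes were called lower. Between 8 h and 24 h Pgd rose by 0.65 in Raptor-deficient cells (adjusted p = 0.000782), against 0.30 in wild-type cells (adjusted p = 0.113), and the genotype difference in this later change, 0.35, did not pass (adjusted p = 0.461). All 3 probe sets of Pgd were called lower at 8 h and at 24 h, with log2 differences of -0.81, -0.79 and -0.75 at 8 h. They differ in brightness and correlated over the 24 arrays at r of 0.99 and 0.94 with the one used, which may also detect similar transcripts, since its design name marks it as not unique.

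Pgls encodes the lactonase between the dehydrogenases of this arm. It was measured at 7.89, 7.87, 7.83 and 7.82 in Raptor-deficient cells at 8 h, against 8.04, 8.14, 8.15 and 8.09 in wild-type cells. Although these 8 samples do not overlap, the difference of -0.26 was not called (95% interval -0.45 to -0.07, adjusted p = 0.0674); of all genes, 12.5% had all Raptor-deficient samples below all wild-type samples at 8 h. It was called in 6 of the 11 other settings, with adjusted p between 0.0272 (array weights) and 0.0491 (mean of all probe sets). By 24 h the order had turned. The values were 8.47, 8.65, 8.84 and 8.59 in Raptor-deficient cells and 8.40, 8.38, 8.66 and 8.50 in wild-type cells, with overlapping samples (0.15, 95% interval -0.03 to 0.34, adjusted p = 0.273). The gene rose from 8 h to 24 h by 0.79 in Raptor-deficient cells (adjusted p = 3.01e-07) and by 0.38 in wild-type cells (adjusted p = 0.00233), and the genotype difference in that change was 0.41 (adjusted p = 0.0743). That adjusted p was 0.0254 with array weights, 0.0485 with each gene's probe sets averaged and 0.036 when the fit held only the groups compared.

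In the non-oxidative arm, Tkt encodes the transketolase, which moves carbon units between sugar phosphates. Before stimulation it stood at 8.98, 10.23, 9.44 and 9.70 in Raptor-deficient and 9.38, 9.71, 9.57 and 9.64 in wild-type samples. At 8 h the values were 10.29, 10.38, 10.53 and 10.37 in Raptor-deficient cells and 11.15, 11.04, 11.24 and 11.09 in wild-type cells. At 24 h they were 11.02, 11.09, 11.15 and 11.004 in Raptor-deficient cells and 11.41, 11.41, 11.38 and 11.32 in wild-type cells. The stimulated groups were apart at both times, and Raptor-deficient samples at 24 h overlapped wild-type samples at 8 h. Tkt was 1.67-fold lower at 8 h (log2 difference -0.74, adjusted p = 0.00104). At 24 h the difference was -0.32 and was not called (95% interval -0.62 to -0.01, adjusted p = 0.144), while 16.5% of all genes had all Raptor-deficient samples below all wild-type samples at that time.

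Tkt rose by 0.80 in Raptor-deficient cells and by 1.56 in wild-type cells over the first 8 h, each called, and the genotype difference in the change, -0.75, passed as well (adjusted p = 0.0301). The same call for Pgd was kept under every setting and with each sample left out. For Tkt it was lost with the mean of both Tkt probe sets (adjusted p = 0.111) and with only the groups compared in the fit (adjusted p = 0.0969). It was also lost on leaving out unstimulated Raptor-deficient replicate 4, unstimulated wild-type replicate 1 or 3, Raptor-deficient 8 h replicate 1, 2 or 4, or wild-type 8 h replicate 3, with adjusted p between 0.0515 and 0.0675. The probe set used is bright and its design name marks possible matches to similar transcripts. The other probe set averaged 5.36, near the median of all values, and correlated with it at r = -0.0085 over the 24 arrays, with differences of -0.02 at 8 h and -0.06 at 24 h. At 24 h Tkt was called with array weights (adjusted p = 0.00812), with only the groups compared (0.00419), and without unstimulated Raptor-deficient replicate 1 or 2 (adjusted p = 0.0388 and 0.0331) and without both (0.00454), samples that enter that comparison only through the shared estimate of the spread.

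Rpia, the isomerase that makes ribose 5-phosphate, rose the most in wild-type cells over 8 h. Its values at 8 h were 7.65, 7.73, 7.93 and 7.67 in Raptor-deficient cells and 8.16, 8.30, 8.39 and 8.23 in wild-type cells, and at 24 h 7.81, 7.76, 8.22 and 7.89 in Raptor-deficient cells and 8.19, 8.17, 8.39 and 8.27 in wild-type cells. The groups were apart at 8 h and overlapped at 24 h through Raptor-deficient replicate 3. Rpia was 1.44-fold lower at 8 h (log2 difference -0.52, adjusted p = 0.025), a call lost without Raptor-deficient 8 h replicate 1, 2 or 4 or wild-type 8 h replicate 2 or 3 (adjusted p between 0.0562 and 0.0784). At 24 h the difference was -0.33 (95% interval -0.66 to -0.01, adjusted p = 0.143), and it was called with array weights (0.0167), with only the groups compared (0.0305) and without unstimulated Raptor-deficient replicate 1 (0.0473) or replicates 1 and 2 (0.0179). From unstimulated to 8 h Rpia rose 2.15-fold in Raptor-deficient cells and 3.26-fold in wild-type cells, and from 8 h to 24 h it changed by 0.18 (adjusted p = 0.497) and by -0.01 (adjusted p = 0.963). The genotype difference in the 8 h change was -0.60 (95% interval -1.06 to -0.14, adjusted p = 0.11).

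Taldo1, the transaldolase that closes the cycle of the non-oxidative arm, had the smallest change by 24 h in both genotypes. It stood at 7.05, 6.69, 6.74 and 6.73 in Raptor-deficient cells at 8 h, against 7.38, 7.24, 6.94 and 7.32 in wild-type cells. Raptor-deficient replicate 1 lies above wild-type replicate 3, and the other samples are apart. It was 1.33-fold lower (log2 difference -0.42, adjusted p = 0.0148), and the call was lost without Raptor-deficient 8 h replicate 2 (adjusted p = 0.0537) or wild-type 8 h replicate 1 or 4 (adjusted p = 0.0526 and 0.0521). Against unstimulated cells, the 8 h change was -0.26 in Raptor-deficient cells (95% interval -0.49 to -0.02, adjusted p = 0.0952) and 0.17 in wild-type cells (-0.06 to 0.41, adjusted p = 0.263). The difference between these changes was -0.43 (adjusted p = 0.123). At 24 h Taldo1 was 7.36, 7.19, 7.49 and 7.30 in Raptor-deficient cells and 7.45, 7.62, 7.79 and 7.69 in wild-type cells, a difference of -0.30 that was not called (95% interval -0.54 to -0.07, adjusted p = 0.0621). It was called in 6 of the 11 other settings, with adjusted p between 0.0146 (array weights) and 0.0495 (without unstimulated Raptor-deficient replicates 1 and 2).

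**Figure D2:**
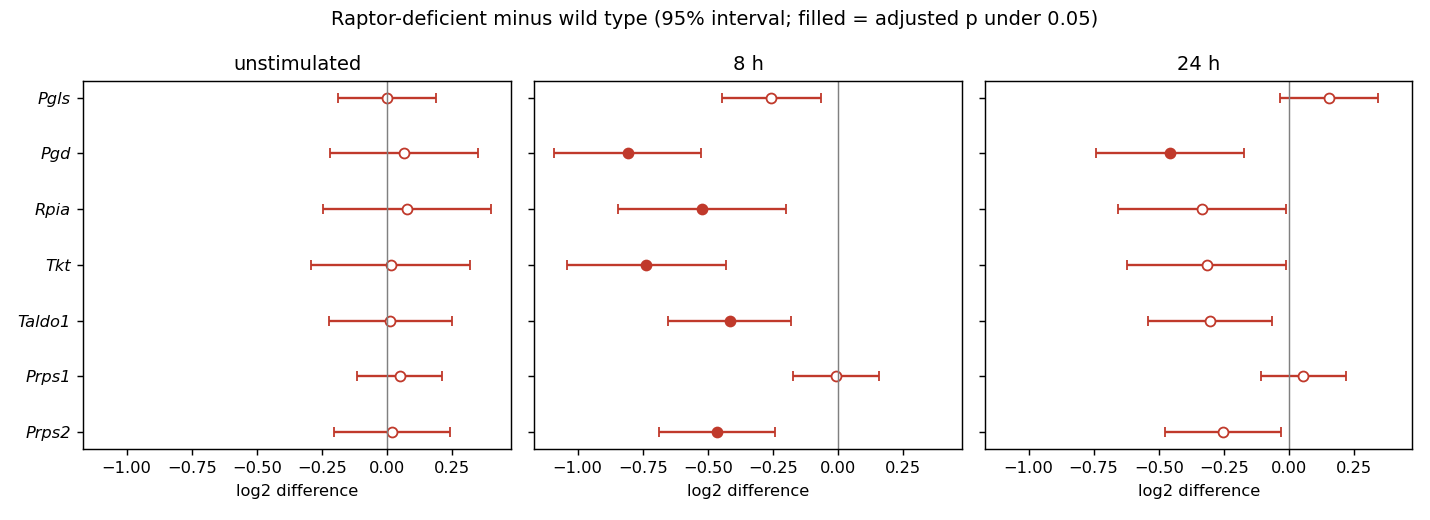
Log2 difference, Raptor-deficient minus wild type, for the 7 measured genes in unstimulated cells and at 8 h and 24 h, with 95% intervals from the limma fit. Filled points have an adjusted p under 0.05: 0 of 7 before stimulation, 5 of 7 at 8 h and 1 of 7 (Pgd) at 24 h.

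The PRPP synthetase genes Prps1 and Prps2 encode isoforms of the same enzyme, and both lie on the X chromosome. Prps1 was at 9.28, 9.19, 9.24 and 9.21 in Raptor-deficient cells at 8 h, against 9.22, 9.29, 9.23 and 9.20 in wild-type cells. Its 24 h values were 9.47, 9.35, 9.42 and 9.38 in Raptor-deficient cells and 9.32, 9.27, 9.40 and 9.41 in wild-type cells. The genotypes lie within each other at both times. The differences were -0.01 at 8 h (95% interval -0.17 to 0.16, adjusted p = 0.972) and 0.05 at 24 h (-0.11 to 0.22, adjusted p = 0.714). These intervals are the narrowest among the 7 genes.

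Prps2 behaved otherwise. Unstimulated cells had 8.16, 8.32, 7.94 and 8.25 in Raptor-deficient and 8.37, 8.15, 7.89 and 8.19 in wild-type samples. At 8 h the values were 7.78, 7.94, 7.83 and 7.75 in Raptor-deficient cells and 8.26, 8.54, 8.24 and 8.12 in wild-type cells, and at 24 h 9.18, 8.82, 9.23 and 9.04 in Raptor-deficient cells and 9.37, 9.29, 9.27 and 9.35 in wild-type cells. Each Raptor-deficient sample lay below each wild-type sample at 8 h and at 24 h, and the Raptor-deficient 8 h samples lay below all unstimulated ones of that genotype, though the closest pair was nearly level. Prps2 was 1.38-fold lower at 8 h (log2 difference -0.46, adjusted p = 0.00388) and differed by -0.25 at 24 h (95% interval -0.48 to -0.03, adjusted p = 0.103), a value called with the mean of all probe sets (0.00729) and with array weights (0.0401). All 3 of its probe sets were called lower at 8 h and 1 of them at 24 h (-0.31, adjusted p = 0.0326).

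The within-array difference Prps2 minus Prps1 was used to ask whether both isoforms changed equally between genotypes. At 8 h it averaged -1.40 ± 0.11 in Raptor-deficient and -0.95 ± 0.14 in wild-type cells (SD, n = 4 each), a difference of -0.46 (exact two-sided permutation p = 0.0286, the smallest that 4 against 4 samples can give, adjusted over 3 times to 0.0429). At 24 h it averaged -0.34 ± 0.14 in Raptor-deficient and -0.03 ± 0.08 in wild-type cells, a difference of -0.31 (exact permutation p = 0.0286, adjusted 0.0429), and before stimulation the difference was -0.03 (exact permutation p = 0.857). This unequal change rests on the brighter Prps1 probe set, whose design name marks it as shared with other transcripts. The dimmer Prps1 probe set, at r = 0.85 with the brighter one over the 24 arrays, was lower in Raptor-deficient cells by 0.32 at 8 h and 0.38 at 24 h without being called (log2 differences of -0.32, adjusted p = 0.292, and -0.38, adjusted p = 0.133). With that probe set, a choice made after seeing the data, the within-array difference between genotypes was -0.15 at 8 h (exact permutation p = 0.0571) and turned to 0.12 at 24 h (exact permutation p = 0.171). The 2 probe sets of Prps1 thus give different values for the genotype difference.

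**Figure D3:**
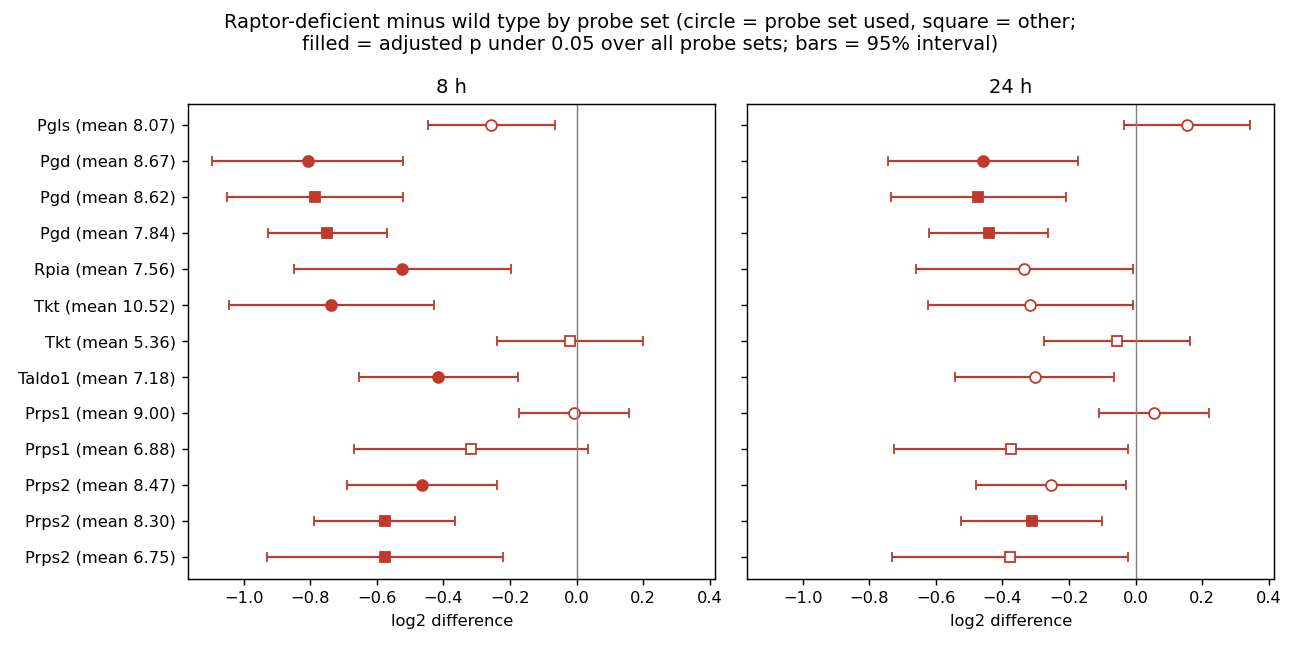
Log2 difference, Raptor-deficient minus wild type, at 8 h and 24 h for each of the 13 probe sets of the 7 genes, with 95% intervals from a fit of 45037 probe sets. Circles are the probe sets used and squares the others, filled where the adjusted p was under 0.05; the 3 probe sets of Pgd and of Prps2 lie together, while the pairs of Tkt and of Prps1 do not.

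Most of the measured genes were higher after 24 h of stimulation than before it in both genotypes. No group was cultured without the antibodies, so stimulation and time in culture cannot be told apart. In Raptor-deficient cells 6 of 7 genes were higher at 24 h than before stimulation, where 21.6% of all genes were, and in wild-type cells 7 of 7, where 25.4% were. At 8 h against unstimulated cells, 3 of 7 were higher in Raptor-deficient cells (16% of all genes) and 1 was lower (16.8% of all genes), and in wild-type cells 5 of 7 were higher (18.9%). Between 8 h and 24 h 5 of 7 rose in Raptor-deficient cells (15.2% of all genes) and 3 of 7 in wild-type cells (17.4%). The median change from unstimulated to 8 h was 0.18 for the members in Raptor-deficient and 0.88 in wild-type cells, against 0.00186 and -0.03 for all genes. These comparisons share samples, so their counts are not independent of each other.

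The members differed in when they rose. Rpia, Tkt and Prps1 rose within 8 h in both genotypes, by 1.10, 0.80 and 0.82 on the log2 scale in Raptor-deficient cells and by 1.71, 1.56 and 0.88 in wild-type cells. Prps2 and Taldo1 were not called as higher at 8 h in either genotype. With the mean of all probe sets, however, Prps2 in wild-type cells was called higher at 8 h (0.28, adjusted p = 0.0094). From 8 h to 24 h Prps2 rose by 1.24 in Raptor-deficient cells (2.36-fold, adjusted p = 2.26e-09) and by 1.03 in wild-type cells (2.04-fold, adjusted p = 2.74e-08), while Taldo1 rose by 0.53 and by 0.42 (adjusted p = 0.000985 and 0.00647). Tkt rose again from 8 h to 24 h in Raptor-deficient cells, by 0.67 (adjusted p = 0.00121), against 0.25 in wild-type cells (adjusted p = 0.239). The genotype difference in this change, 0.42, did not pass (adjusted p = 0.372). In wild-type cells this later change was called for Tkt and Pgd with array weights (adjusted p = 0.0387 and 0.0396). It was also called with only the groups compared in the fit (0.02 and 0.0248). Pgls in wild-type cells rose in both intervals, by 0.44 and then 0.38. Pgd rose at 8 h in wild-type cells, and in Raptor-deficient cells both Pgd and Pgls were called only for the change from 8 h to 24 h. Prps1 and Rpia were called in neither genotype over that later interval, whereas Prps2 was called in both.

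In Raptor-deficient cells Prps2 first fell, by 0.34 on the log2 scale from unstimulated to 8 h (adjusted p = 0.0146), against a change of 0.14 in wild-type cells (adjusted p = 0.348). The fall was not called without unstimulated Raptor-deficient replicate 2 (adjusted p = 0.0549), or without replicates 1 and 2 of that group, a setting added after seeing the data (adjusted p = 0.134). The genotype difference in this change, -0.48, did not pass (95% interval -0.80 to -0.17, adjusted p = 0.0592). It passed with the mean of all probe sets (adjusted p = 0.00674), with dim genes left out (0.0363), with centred arrays (0.0358), with array weights (0.041) and with an intensity trend and robust prior (0.0493). Over the whole 24 h no member was called for a genotype difference in the change, where 13.3% of all genes were, and between 8 h and 24 h none was called either, where 4.53% were. The unadjusted p of limma's test was 0.0126 for Pgd over 24 h and 0.00402 for Pgls between 8 h and 24 h. The other members were above 0.05 in these comparisons. The share of all genes under that unadjusted cut is not given here, so no reading is drawn from it. Other settings did give calls. Pgd over 24 h was called with the mean of all probe sets (adjusted p = 0.0275), with centred arrays (0.0364), with array weights (0.0141) and without unstimulated Raptor-deficient replicate 1 (0.0105), and 1 of its probe sets was called (-0.46, adjusted p = 0.016). Tkt from 8 h to 24 h was called with only the groups compared (adjusted p = 0.0118) and without unstimulated Raptor-deficient replicates 1 and 2 (0.025).

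**Figure D4:**
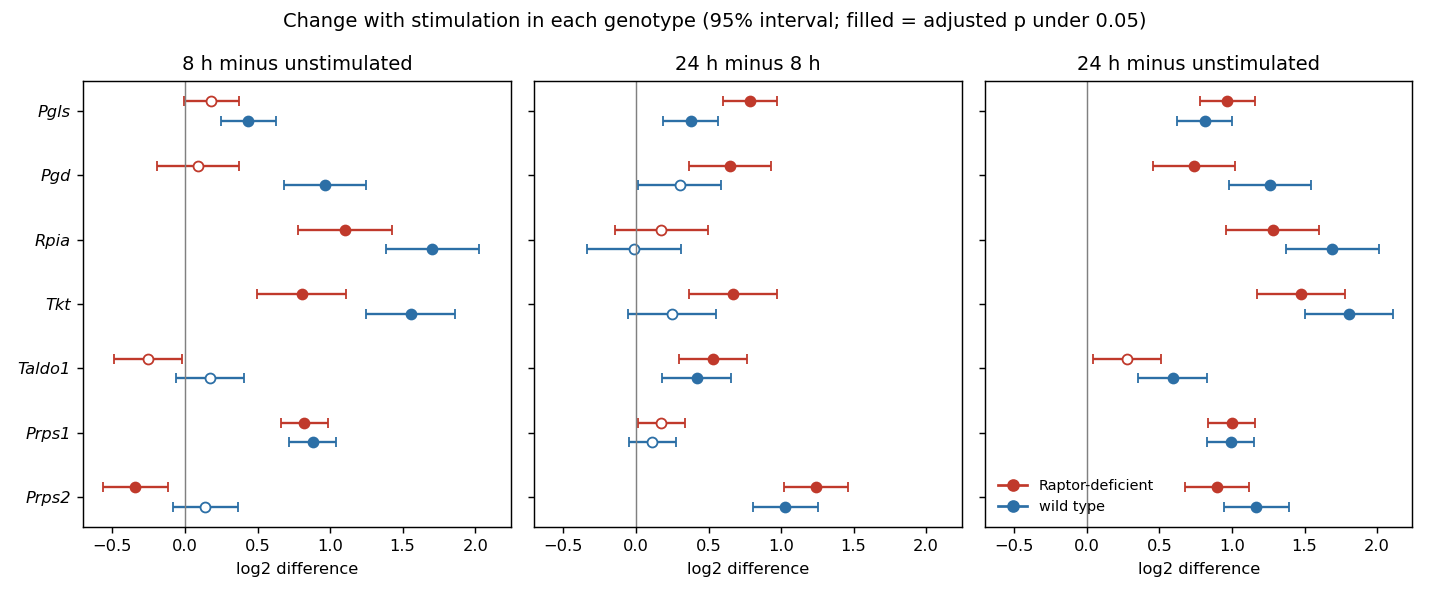
Log2 change with stimulation for the 7 measured genes, in Raptor-deficient (red, upper) and wild-type (blue, lower) cells, with 95% intervals; filled points have an adjusted p under 0.05. Rpia, Tkt and Prps1 rose in the first 8 h in both genotypes, and Prps2, Taldo1 and Pgls between 8 h and 24 h in both. Tkt and Pgd were also called in that later interval in Raptor-deficient cells, and Pgls and Pgd in the first 8 h in wild-type cells.

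Across the 24 arrays the members' levels ran together to different degrees. The 21 pairwise correlations ranged from 0.39 (Taldo1 and Prps1) to 0.93 (Pgd and Tkt), with a median of 0.77, over arrays that share the stimulation times and genotypes. Prps1 and Prps2 correlated at 0.50, less than Prps1 did with Rpia (0.91) or Prps2 with Taldo1 (0.82). For Prps1 these values rest on its brighter probe set, and the dimmer one was not correlated with the other members. Among 9498 genes whose mean reached the overall median, those most like Tkt were Aprt, which uses PRPP to salvage adenine (r = 0.98), Tmem33 and the splicing factor gene Snrpa1. Rpia was most like Psmc2, a proteasome subunit gene, Snrpd1 and Cfdp1, and Pgd most like Micos10, Ndufb8 (a respiratory complex I subunit gene) and Ctsc. For Pgls they were Smarcb1, Ndufa7 and Nrros. The genes most like Prps1 were Larp1, Spin4 and Il2ra, and those most like Prps2 were Vav3, Mcm6 (a subunit of the replicative helicase) and Eno1b. Taldo1 had the loosest neighbours, Ufsp2, Ube2e3 and Fhl3, with r of at most 0.92.

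Other lists were read against the same shares of all genes, 8.77% lower at 8 h and 13.1% lower at 24 h. Of 13 measured neighbours of the pathway, 3 were lower in Raptor-deficient cells at 8 h (G6pd2, Dera and Pgm2) and 0 higher, with a list median of -0.08. At 24 h 3 were lower (Tigar, Dera and Pgm2), 1 was higher and the median was -0.10. The higher one was Idnk, a gluconate kinase gene, named after its values were seen (log2 difference 0.32, adjusted p = 0.0316). Dera, which cleaves deoxyribose 5-phosphate, was 1.39-fold lower at 8 h and 1.40-fold lower at 24 h, and Tigar, a phosphatase that directs glucose 6-phosphate to the pathway, was 1.53-fold lower at 24 h (adjusted p = 0.000491). G6pd2, a retrogene of glucose 6-phosphate dehydrogenase, was 1.54-fold lower at 8 h (adjusted p = 0.000458). Its bright probe set is marked as shared with other transcripts and its dim one showed -0.16 (adjusted p = 0.354 over all probe sets), so this value is uncertain and does not stand for G6pdx.

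PRPP and NADPH, the products of the pathway, are used by the next lists. Of 4 measured users of PRPP, 3 were lower at 8 h (Hprt, Aprt and Umps) and 3 at 24 h (Umps, Hprt and Ppat), with list medians of -0.50 and -0.45. Hprt, which salvages purines, was 1.52-fold lower at 8 h (adjusted p = 0.00104), and Umps, which makes UMP, was 1.58-fold lower at 24 h (adjusted p = 2.34e-06). Ppat, the enzyme that commits PRPP to purine synthesis, differed by -0.18 at 8 h (adjusted p = 0.276). Of 21 NADPH users and redox genes, 9 were lower and 0 higher at 8 h, and 8 were lower and 0 higher at 24 h. Gpx1, a glutathione peroxidase gene, was 1.998-fold lower at 8 h (adjusted p = 2.42e-08), Txnrd1, the thioredoxin reductase gene, 1.52-fold lower at 24 h (adjusted p = 4.96e-06), and Glrx, a glutaredoxin gene, 2.66-fold lower at 24 h (adjusted p = 1.09e-11).

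Of 13 genes listed as other NADPH sources, 3 were lower at 8 h (Mthfd1l, Mthfd1 and Nadk) and 3 at 24 h (Mthfd1l, Mthfd1 and Nadk2). None was higher at either time, and 8.77% and 13.1% of all genes were lower. Whether this list of 13 genes differs from these shares was not tested. The list is broad, and the enzymes of Mthfd1l and of the NAD kinase genes Nadk and Nadk2 do not themselves make NADPH. These counts are therefore not counts of NADPH-producing enzymes. The folate enzyme genes Mthfd1l and Mthfd1 were in both counts, Mthfd1l 1.54-fold lower at 8 h and 1.501-fold lower at 24 h. The list medians of -0.03 and -0.04 lay near those of all genes. Of 10 glycolytic genes that share intermediates with the pathway, 5 were lower at 8 h and 8 at 24 h, with medians of -0.46 and -0.62 and 0 higher, among them Aldoa, an aldolase gene, 1.40-fold lower at 8 h and 1.35-fold lower at 24 h. For comparison, the median of the 7 pathway members was -0.46 at 8 h and -0.30 at 24 h. Whether these lists differ from each other in their change from 8 h to 24 h was not tested.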

How the data were processed

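The authors deposited log2 intensities of 45141 probe sets from 24 Affymetrix arrays, made with RMA and Partek 6.5 per the submitters' processing notes. Per the labels, 20 ng of RNA from each sample were amplified and labelled with NuGEN kits. Values ran from 1.64 to 13.8. The platform's gene table gave 1 gene symbol for 28898 probe sets, several for 551 and none for 15692, and 28689 were matched by Entrez number to RefSeq genes of GRCm38.p6. Each gene was represented by its brightest probe set, judged by the mean over the 24 arrays, which left 17097 genes. The 7 measured members have 13 probe sets, and the others served as a check in a separate fit of 45037 probe sets without the 104 control probe sets. Levels are not compared between genes.

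A mean per group was fitted to all 24 samples with limma 3.58.1 in R 4.3.3 (lmFit and eBayes, two-sided, 18 residual degrees of freedom). Benjamini-Hochberg adjustment ran over all genes within each of 12 comparisons, with calls made at an adjusted p under 0.05. Intervals are 95% intervals of the fit. The Prps2 minus Prps1 difference was tested by an exact permutation of 70 splits. The pipeline was tested on simulated data. All 9 members are named, and of each other list at most the 3 called genes with the smallest p per comparison. For likeness the 3 highest Pearson correlations are given. The members, lists and rules were chosen with earlier results of these data known. Alternatives were the probe set rule, a filter on dim genes, cyclic loess, centring, array weights, the prior, the samples in the fit, a replicate block and left-out samples.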

Additional observations from a re-analysis of the deposited data

Results flagged for a closer look

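Taldo1 in Raptor-deficient 8 h replicate 1, at 7.05, lay far from the other 3 samples of its group, which lay between 6.69 and 6.74. The gap made up 0.868 of the group's range, above Dixon's critical value for 4 samples. It was the only such value among 42 groups of 4, where chance gives about 1 in 20. The change from unstimulated cells to 8 h differed between genotypes for Pgd, by -0.87, and for Tkt, by -0.75, on the log2 scale, each by limma's test of the difference itself (adjusted p = 0.00715 and 0.0301).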

How the results depend on the processing

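Between genotypes at 8 h, 5 or 6 members were called under each of the 11 other settings, and 3 to 6 when each of the 24 samples was left out in turn (3 without Raptor-deficient 8 h replicate 2). The count at 24 h was 1 and moved to 2 with the mean of all probe sets, with dim genes left out, with cyclic loess and with centred arrays, to 4 with only the groups compared in the fit, and to 5 with array weights; it was 0 to 4 with samples left out (0 without wild-type 24 h replicate 3, 4 without unstimulated Raptor-deficient replicate 1). In wild-type cells from 8 h to 24 h the count of 3 became 5 with array weights and with only the groups compared. For the genotype difference in the change, the count of 2 at 8 h against unstimulated became 1 with only the groups compared and 1 to 5 with samples left out (5 without unstimulated Raptor-deficient replicate 3). The count of 0 for 24 h against 8 h became 1 with the mean of all probe sets and with array weights, 2 with only the groups compared, and 0 to 1 with samples left out. The count of 0 for 24 h against unstimulated became 1 with the mean of all probe sets, with centred arrays and with array weights, and 0 to 2 with samples left out (2 without unstimulated Raptor-deficient replicate 1). Without replicates 1 and 2 of the unstimulated Raptor-deficient group, chosen after seeing the data, the counts were 4 (genotypes at 24 h), 5 (wild type, 24 h against 8 h) and 2 (genotype difference, 24 h against 8 h). Prps2 minus Prps1 differed between genotypes at 24 h by -0.30 without replicate 1 of both 24 h groups (exact permutation p = 0.1, the smallest that 3 against 3 allows) and by -0.36 to -0.24 with samples left out, with an exact permutation p of 0.0571 without any 1 of the wild-type 24 h samples. At 8 h that range was -0.51 to -0.39, and before stimulation -0.15 to 0.06. With the dimmer Prps1 probe set, also chosen after seeing the data, the values were -0.15 at 8 h (exact permutation p = 0.0571) and 0.12, the opposite sign, at 24 h (exact permutation p = 0.171). The cause of these shifts was not tested, apart from fewer genes or samples in the settings that leave them out.

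Replicate numbers recur in each group, and the labels do not say that they pair samples. Of 36 same-numbered pairs 8 had deviations correlated over 0.1 (range -0.07 to 0.25). Between genotypes at 24 h, 4 of 4 Raptor-deficient arrays correlated best with the wild-type array of the same number. The same held for wild-type arrays at 24 h against 8 h, and for 2 or 3 of 4 arrays in the other comparisons. A link between same-numbered samples is thus not excluded, and the main fit leaves it out. With a replicate block the counts of members called were 5 at 8 h and 1 at 24 h between genotypes, and neither this block nor a random block within genotype changed a count of members in any of the 12 comparisons. Of 2940 single-gene values under all settings, 20 lost a call, 74 gained one and 0 turned sign after a call.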
